A study of Mus musculus with 9 samples.

Results

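Paused mouse embryonic stem (ES) cells were compared with ES cells in 2i, the former treated with an inhibitor of mTor and the latter kept in a medium named for its inhibitors. These are 6 of the 9 libraries of the series, chosen by their labelled condition: 3 Paused and 3 2i, with each state taken once from E14, v6.5 and Oct4 GiP, which are established cell lines (Oct4 GiP carries a reporter of Oct4). The Paused cells had received 200 nM INK128, an inhibitor of mTor, over 2 weeks. The 2i cells had been kept in 2i for 2 weeks, and the remaining 3 libraries came from the same lines in Serum. All cells grew on gelatin at passages 20 to 23, and each library was made with a directional kit from 250 ng of total RNA to which ERCC spike-in RNA had been added. The labels give neither the composition of the 2i medium nor the base medium of the Paused cells. So INK128 and any difference in base medium cannot be told apart here. Each line is 1 established culture with 1 library per condition. The p-values of genes below rest on how far differences between conditions vary across these 3 lines, Serum libraries included.

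mTor is the kinase of 2 complexes that read nutrients and growth factors. mTORC1 drives translation, ribosome production, lipid synthesis and the amino acid programme of the transcription factor ATF4, and restrains autophagy and lysosome genes. As generally used, 2i means inhibitors of MEK, the kinase above ERK in FGF signalling, and of GSK3, whose inhibition stabilises beta-catenin and so mimics Wnt signalling. In ES cells, low ERK activity favours the naive state and high ERK activity favours the formative and primed states that follow it.

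Values are FPKM (fragments per kilobase of transcript, scaled to the library's mapped fragments), and 3 values in a row stand for E14, v6.5 and Oct4 GiP in that order. Differences are log2 fold changes, Paused minus 2i, on the log2(FPKM + 1) scale, which understates low genes, and are given ± the standard error of limma. A gene was called, and is said to rise or fall, at an adjusted p under 0.05 over the 12711 tested genes. The depth of the libraries in reads is unknown. The 9 fixed ES markers all stood at FPKM of 1 or more in the 6 libraries. Marker sums of 3 other cell types were lower in Paused than in 2i in every line: endoderm at 1.58, 2.62 and 1.53 against 3.04, 3.59 and 2.43 FPKM, mesoderm at 3.26, 2.33 and 1.8 against 5.03, 7.1 and 4.89, and trophoblast at 25.9, 7.48 and 21.9 against 61, 27.3 and 46.4. Neural sums (60.8, 55.1 and 75.4 against 92.6, 32.3 and 53.5) and feeder fibroblast sums (1.89, 1.91 and 0.738 against 0.95, 1.16 and 1.41) differed in direction between lines. In each of the 6 libraries, 0 or 1 of 6 endoderm and 0 to 2 of 5 mesoderm markers reached FPKM of 1. For trophoblast it was 1 or 2 of 6. These sums therefore rest on few genes or on low values. The part of such cell types in other results was not tested. In such bulk samples fewer cells of a type and less RNA per cell cannot be told apart. The 2i library of E14 stood apart in 3 of 4 tested genes of the Y chromosome. It held 2.42 FPKM of Eif2s3y against 15.3 to 71.2 in the other 8 libraries, 0.187 of Uty and 0.528 of Ddx3y, each below every other library, while its 0.855 of Uba1y was above the 0.776 of Serum v6.5. These genes were named after their values were seen. None of the 4 was called (Eif2s3y adjusted p = 0.25, Uty 0.053, Ddx3y 0.37, Uba1y 0.52), and their part in other results was not tested. Without that library 5443 genes were called.

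In all, 5638 of 12711 genes were called (44.4%), 2517 higher in Paused (19.8%) and 3121 lower (24.6%). These 3 shares are the background against which every count of members below is read. Where a list below has 0 members called in 1 direction, 0 to 2 of its members had an unadjusted p under 0.05 in that direction. A list's counts depend on single libraries where they are small: of 47 counts of 1 to 6 called members, 32 moved by more than 1.5 times when 1 library was left out, against 15 of 38 larger counts, which are named with the library. The log2 fold change reached 1 in size for 736 of the rises and 1054 of the falls. The median over all tested genes was -0.033, and -0.075, -0.032 and 0.011 in the 3 lines. The difference had 1 sign in all 3 lines for 8705 genes (68.5%), and the 3 Paused values did not overlap the 3 2i values for 6595 (51.9%). Each lack of overlap below is read against this last share, and picking genes by large change makes it likely. The direction split depends on the scale. The second set of columns that the authors deposited is FPKM times 1 constant per library, 1.88 ± 0.095 in Paused and 2.80 ± 0.362 in 2i (SD, n = 3, exact permutation p = 0.1, two-sided and the smallest that 3 against 3 libraries allow). On that scale the median gene stood at -0.56, with 789 genes higher and 6922 lower (10.2% of calls higher, against 44.6% in FPKM). Centring each library on its median gave 3180 higher and 2645 lower (54.6%), and quantile normalization 3020 and 2755 (52.3%). Changes below are in FPKM. A rise of under about 0.56 stands near or below 0 on the authors' scale, called or not. The ratio of the constants, Paused to 2i, differed between the lines (0.571, 0.751 and 0.722). Larger rises can lose their call there (Sox2, Tet1, Trim28, Eef2, Nop58, Rrn3, Top2a, Mki67, Mnt, Mga, Ddx4 and Syce2 among those named below). The count was lowest, 3543, without the Paused E14 library.

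**Figure D1:**
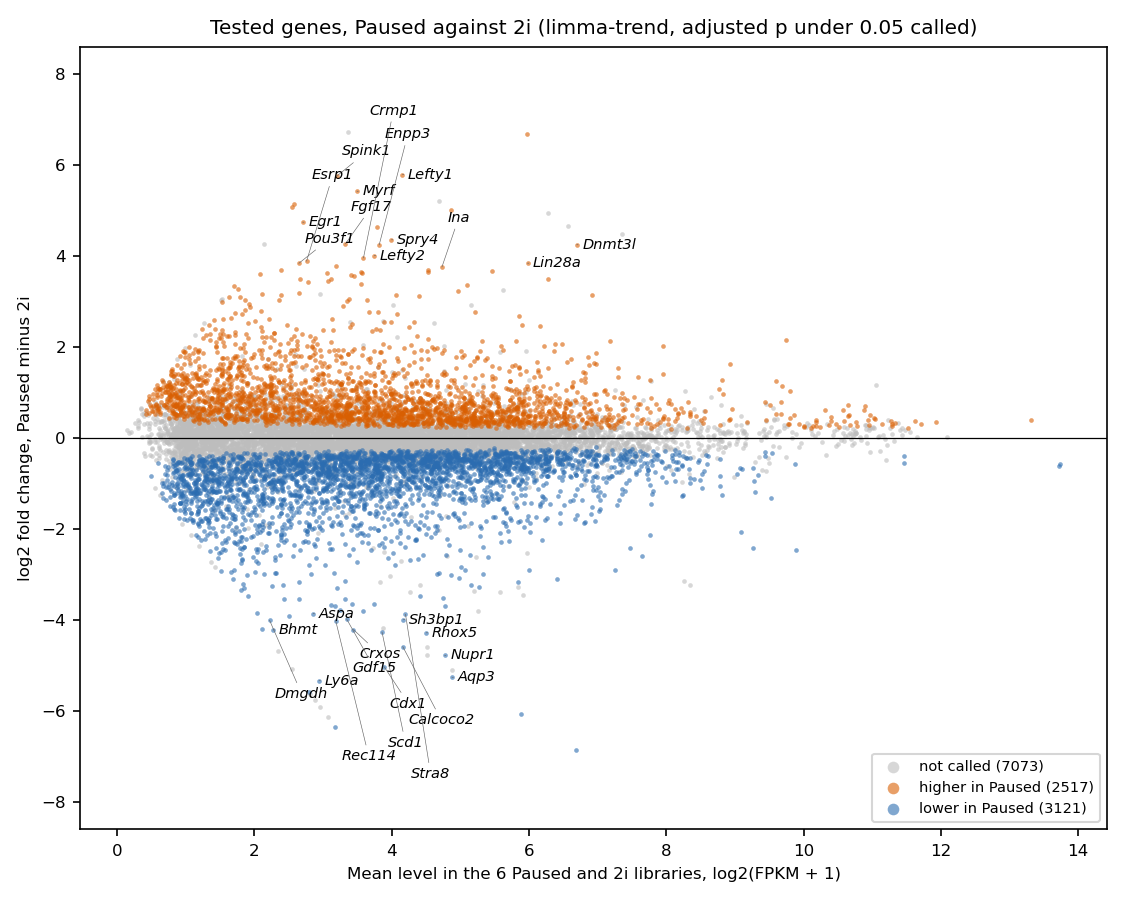
Log2 fold change of Paused against 2i (vertical axis) against mean level in the 6 libraries (horizontal axis, mean log2(FPKM + 1)) for the 12711 tested genes. Grey points were not called, orange points were higher in Paused (2517) and blue points lower (3121), and labels mark the genes named in the text among the 15 with the largest log2 fold change in each direction by the naming rule.

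The largest rise by the naming rule was that of Lefty1, followed by Spink1 and Myrf. Lefty1, a secreted inhibitor of Nodal (chromosome 1, 180935022 to 180938401), stood at 144, 80.7 and 197 FPKM in Paused and 0.492, 0.456 and 5.31 in 2i. All 3 Paused libraries lay far above all 3 2i libraries (log2 fold change 5.79 ± 0.75, adjusted p = 0.0021), while Serum held 39.8, 84 and 20.1. The neighbouring antagonist Lefty2 rose from 0.509, 0.967 and 11.5 to 53.4, 29.8 and 92.6 FPKM (log2 fold change 4.01 ± 0.85), with Oct4 GiP the highest line for both genes in both conditions. Myrf, a membrane-bound transcription factor known from myelinating glia, was nearly level across the Paused lines at 68.7, 74.2 and 76 FPKM, against 1.53, 0.33 and 0.504 in 2i (log2 fold change 5.43 ± 0.24, adjusted p = 0.00026). Spink1, a trypsin inhibitor, stood at 82.3, 34.4 and 104 against 0.563, 0.245 and 0 FPKM (log2 fold change 5.76 ± 0.34) and is listed at 0 in the 2i library of Oct4 GiP. Other genes among the 15 largest rises were Enpp3, an ectonucleotidase (4.25), Crmp1, a neuronal cytoskeletal regulator (3.96), Esrp1, an epithelial splicing factor (3.89), and Ina, the neurofilament protein alpha-internexin (3.76). For none of these 4 did the 2 conditions overlap.

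The largest falls by the naming rule, which asks for a mean of 5 FPKM or more in 2i, were those of Ly6a and Aqp3. Ly6a, the surface antigen Sca-1, stood at 63, 14.8 and 114 FPKM in 2i and 0.225, 0.216 and 0.184 in Paused (log2 fold change -5.33 ± 0.58, adjusted p = 0.0014). The spread lay in 2i, where v6.5 held least, and every Paused value was below 0.3 FPKM. Aqp3, a channel for water and glycerol (chromosome 4, 41092724 to 41098183), fell from 147, 212 and 191 to 5.81, 4.57 and 1.83 FPKM (log2 fold change -5.26 ± 0.48, adjusted p = 0.00089), and Serum held 16.1, 5.32 and 16.5. Rhox5, a homeobox gene of the X-linked reproductive cluster, fell from 307, 42.5 and 73.7 to 11.5, 1.46 and 3.43 FPKM (log2 fold change -4.28 ± 0.33), E14 being highest in both conditions. The homeobox gene Crxos (-4.21), Calcoco2, a receptor of selective autophagy (-4.59), Sh3bp1, a GTPase-activating protein (-3.99), and Aspa, which cleaves N-acetylaspartate (-3.86), fell without overlap as well.

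Genes that ERK signalling induces were higher in Paused. Of 28 tested genes of ERK feedback and immediate early response, 17 rose and 1 fell, with a median log2 fold change of 0.96 against -0.033 for all genes. Egr1, an immediate early transcription factor, stood at 40.5, 15.5 and 55 FPKM in Paused and 0.192, 0.213 and 0.37 in 2i (log2 fold change 4.75 ± 0.42, adjusted p = 0.00079). In 2i it was below 0.4 FPKM in every line. Spry4, a feedback inhibitor of receptor tyrosine kinases, rose from 2.74, 3.7 and 1.49 to 54.2, 83.8 and 79.8 FPKM (log2 fold change 4.36 ± 0.23), and Serum held 31.8, 51.1 and 46.9. The ERK phosphatase Dusp6 rose from 6.18, 7.84 and 7.55 to 37.4, 67.8 and 32.6 FPKM (log2 fold change 2.45 ± 0.23, adjusted p = 0.00092). Dusp4, a nuclear phosphatase of the same family, rose from 0.583, 1.14 and 0.607 to 15.5, 28.2 and 6.95 FPKM (log2 fold change 3.15 ± 0.34). The 2 states did not overlap for any of these 4 genes. Etv4, an ETS factor downstream of FGF, rose by less, from 24.3, 20.6 and 9.54 to 41.2, 87.7 and 37.8 FPKM (log2 fold change 1.55 ± 0.32). Its lowest Paused value, in Oct4 GiP, exceeded its highest 2i value, in E14, by less than the spread within Paused.

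Some ligands of the FGF family rose as well. Of 14 tested ligands and receptors, 6 rose, 2 fell and 6 were not called. Fgf17 stood at 39.2, 22.8 and 88.1 FPKM in Paused and 1.17, 0.578 and 2.46 in 2i (log2 fold change 4.27 ± 0.21, adjusted p = 0.00026). Fgf15 was almost absent in 2i, at 0.143, 0.149 and 0.354 FPKM, and reached 10.9, 7 and 32.8 in Paused (log2 fold change 3.61 ± 0.48). Fgf1 rose from 0.0558, 0.194 and 0.245 to 3.34, 1.1 and 8.68 FPKM (log2 fold change 1.94 ± 0.37). In these 3 ligands Oct4 GiP was the highest Paused line and v6.5 the lowest.

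Targets of beta-catenin split evenly in FPKM. Of 19 tested Wnt targets, 6 rose and 6 fell (31.6% and 31.6%), against 5 and 7 on the authors' scale. Cdx1, a caudal homeobox gene and direct Wnt target, fell from 118, 62.9 and 79.4 to 1.2, 2.72 and 1.14 FPKM (log2 fold change -5.03 ± 0.43, adjusted p = 0.00074), and Serum held 4.5, 0.637 and 2.26. The Wnt antagonist Axin2 stood at 4.32, 8.51 and 3.95 FPKM in Paused and 22.6, 6.77 and 7 in 2i, with the 2 groups overlapping (log2 fold change -0.85 ± 0.43, adjusted p = 0.15, not called). Without the Paused v6.5 library it was called lower (-1.39, adjusted p = 0.029). Lef1, a partner of beta-catenin on DNA, rose, from 0.822, 0.241 and 0.111 to 10.1, 16.4 and 4.92 FPKM (log2 fold change 2.94 ± 0.31). The receptor Fzd7 rose from 8.13, 9.86 and 7.54 to 42, 41.1 and 49.7 FPKM (log2 fold change 2.25 ± 0.22). So the members with the largest changes did not share 1 direction.

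Of 14 tested Nodal and Lefty genes 8 rose and 2 fell (median 0.63; 5 and 2 on the authors' scale). Beside the Lefty genes, Skil, a repressor of SMAD proteins that the pathway induces, rose from 7.27, 4.12 and 3.7 to 33.1, 29.3 and 24.5 FPKM (log2 fold change 2.35 ± 0.30, adjusted p = 0.002). Its values did not overlap between the states. Of 15 BMP genes 3 rose and 3 fell (3 and 7 on the authors' scale), shares near or below the background in FPKM. Among the Id proteins, which block differentiation factors and are induced by BMP, Id2 rose from 1.03, 1.52 and 0.787 to 19.3, 15.8 and 32.8 FPKM (log2 fold change 3.43 ± 0.28). Id1 rose from 8.06, 5.76 and 11.3 to 21.1, 48 and 41.2 FPKM (log2 fold change 1.97 ± 0.31). The third gene of the family did not follow them. Id3 stood at 29.8, 23.3 and 25.9 FPKM in Paused and 17, 56.6 and 22.4 in 2i, overlapped and was not called (adjusted p = 0.87). Serum held more Id1 than either state, at 72.7, 157 and 124 FPKM. The ligand Bmp7 fell from 2.82, 3.52 and 2.39 to 0.472, 0.305 and 0.271 FPKM (log2 fold change -1.53 ± 0.13).

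**Figure D2:**
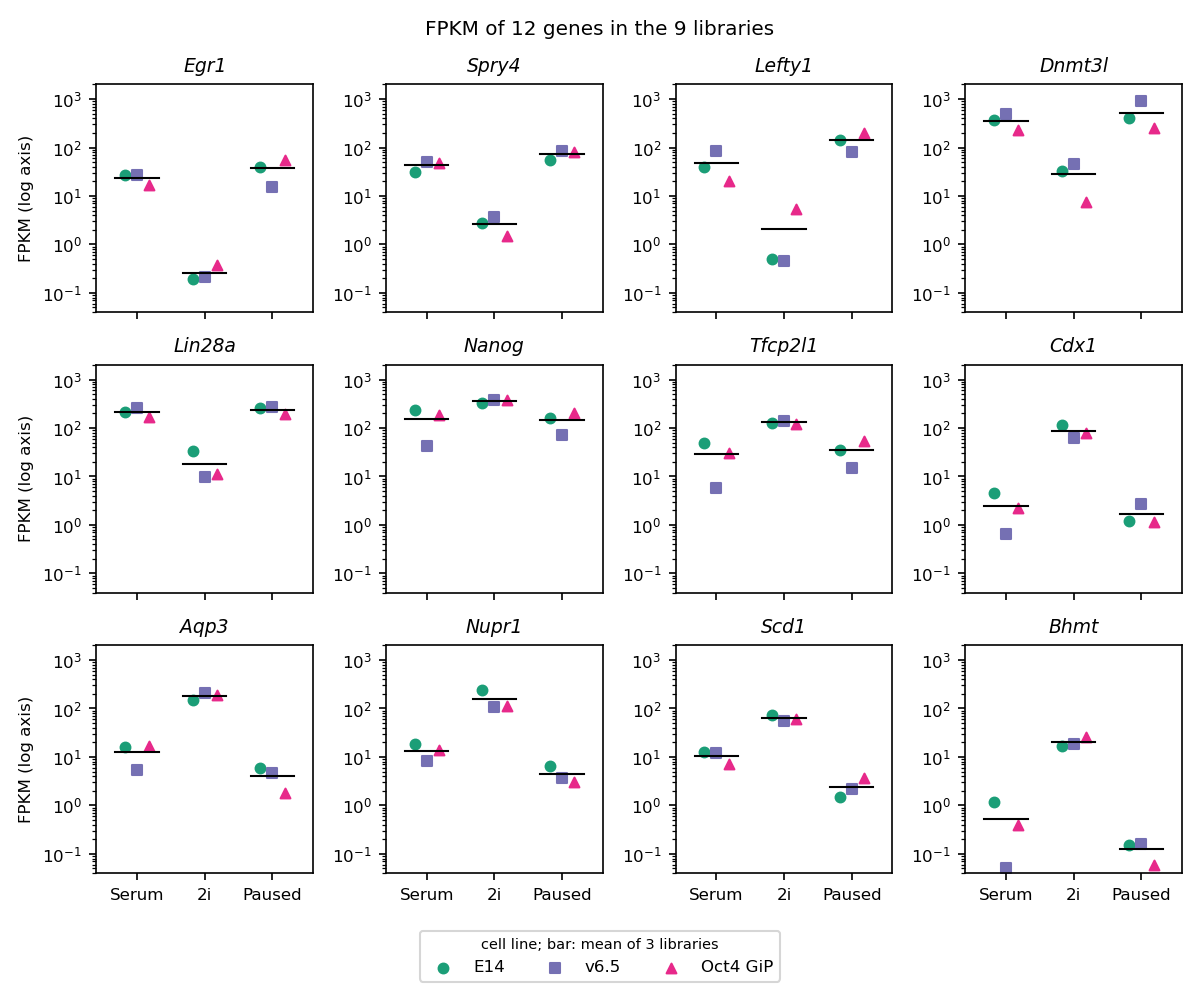
FPKM (logarithmic axis, drawn from 0.05, values below it placed at 0.05) of 12 genes in each of the 9 libraries, with conditions on the horizontal axis and 1 symbol per line, horizontal bars marking condition means. Egr1, Spry4, Dnmt3l, Lin28a and Lefty1 sit higher in every Paused than in every 2i library, while Aqp3, Nupr1, Scd1, Bhmt and Cdx1 sit lower, and Nanog and Tfcp2l1 are lower in Paused with a wide spread between lines.

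Pluripotency factors did not move as 1 group. All 12 tested factors of the core list rose (median 0.78, 4 of them also on the authors' scale), a higher share than in any other of the 50 lists. When 1 library was left out 9 to 12 of them rose, the fewest without Paused Oct4 GiP. Nanog was listed with the naive factors and not here. Lin28a, an RNA-binding protein that blocks the microRNA let-7, stood at 254, 271 and 197 FPKM in Paused and 32.9, 9.92 and 11.4 in 2i (log2 fold change 3.85 ± 0.35, adjusted p = 0.00088). Utf1, a chromatin factor of undifferentiated cells, rose from 121, 175 and 85.3 to 488, 620.5 and 405 FPKM (log2 fold change 2.02 ± 0.11). Tdgf1, the Nodal co-receptor, rose from 257, 283 and 368 to 596, 745 and 559 FPKM (log2 fold change 1.07 ± 0.17). Each of these 3 genes was above its highest 2i value in every Paused library. Pou5f1 (Oct4) rose least of the factors named, from 998, 1241 and 1215 to 1453, 1475 and 1859 FPKM (log2 fold change 0.47 ± 0.12, adjusted p = 0.019; -0.10 on the authors' scale). Sox2 rose from 204, 226 and 239 to 379, 259.5 and 424 FPKM (log2 fold change 0.64 ± 0.16, adjusted p = 0.018). The call of Pou5f1 was lost without 2i E14, Paused E14, Paused v6.5, 2i Oct4 GiP or Paused Oct4 GiP (adjusted p = 0.055 to 0.082), and that of Sox2 without Paused E14, 2i Oct4 GiP or Paused Oct4 GiP (adjusted p = 0.071 to 0.077).

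The naive factors differed between the lines. Of 18 tested, 2 rose and 4 fell (0 fell without any 1 of the 3 Paused libraries; 0 and 9 on the authors' scale), and the median was -0.15, -0.87 and 0.02 in the 3 lines. Nanog (chromosome 6, 122707489 to 122714633) was even across 2i, at 329, 371 and 383 FPKM, and uneven across Paused, at 158, 72.5 and 200.3. Each Paused library lay below each 2i library (log2 fold change -1.44 ± 0.46, adjusted p = 0.043), and Serum held 239, 42.8 and 185, with v6.5 lowest there too. Tfcp2l1, a STAT3-dependent naive factor, fell from 128, 142 and 122 to 35.1, 14.8 and 54.3 FPKM (log2 fold change -2.06 ± 0.56, adjusted p = 0.026). Tbx3, a T-box factor of the same network, fell from 89.1, 118 and 110.2 to 26.6, 17.7 and 18.9 FPKM (log2 fold change -2.29 ± 0.62). These 3 calls rested on few libraries. Nanog was not called without Paused E14, 2i v6.5, Paused v6.5, Serum Oct4 GiP, 2i Oct4 GiP or Paused Oct4 GiP (adjusted p = 0.067 to 0.13), nor without the line as a block (adjusted p = 0.099). Tbx3 was not called without Paused E14, 2i v6.5, Paused v6.5, 2i Oct4 GiP or Paused Oct4 GiP (adjusted p = 0.053 to 0.098). Tfcp2l1 was not called without Paused E14, Paused v6.5 or Paused Oct4 GiP (adjusted p = 0.051 to 0.1), nor without the block (0.053).

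Other naive factors overlapped between the states. Esrrb, an orphan nuclear receptor, stood at 172, 109 and 249 FPKM in Paused and 183, 248 and 234 in 2i (adjusted p = 0.58). Zfp42 (Rex1), a zinc finger marker of naive cells, stood at 572, 230.2 and 828 FPKM in Paused and 411, 344 and 599.5 in 2i (adjusted p = 0.83). Klf4, a zinc finger factor, did not overlap, at 112, 69 and 93.7 FPKM in Paused and 141, 166 and 139 in 2i, and still was not called (log2 fold change -0.72 ± 0.52, adjusted p = 0.3). At the same fold it was called lower without Serum v6.5 (adjusted p = 0.027) and in the fit of the 6 libraries (0.049). In all 3 genes the v6.5 line was the lowest of the Paused libraries and, with 81.6, 12.2 and 63.2 FPKM for Klf4, of the Serum libraries. Prdm14, which represses DNA methylation genes in naive cells, was called lower (log2 fold change -1.60 ± 0.51, adjusted p = 0.042) but not without Paused E14, 2i v6.5, Paused v6.5, Serum Oct4 GiP, 2i Oct4 GiP or Paused Oct4 GiP (adjusted p = 0.07 to 0.14), nor without the block (0.11). Gbx2 is 1 of the 2 naive factors that rose. Its call was kept only without Serum E14 or 2i E14. With any other library left out, limma did not call it (log2 fold change 1.19 to 1.91, adjusted p = 0.051 to 0.16).

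Formative and primed factors were higher in Paused. Of 22 tested, 15 rose and 0 fell (median 1.56), and 9 rose without the Paused E14 library. Pou3f1 (Oct6), a POU factor of the epiblast, stood at 34.1, 40.3 and 8.22 FPKM in Paused and 0.663, 0.854 and 0.467 in 2i (log2 fold change 3.84 ± 0.47, adjusted p = 0.0018). Tcf15, a helix-loop-helix factor that FGF induces, rose from 11.7, 6.91 and 18 to 132, 193 and 149 FPKM (log2 fold change 3.66 ± 0.31). Grhl2, a regulator of epithelial genes, rose from 2.23, 1.23 and 3.53 to 43.3, 27.5 and 40.9 FPKM (log2 fold change 3.56 ± 0.20). In these 3 genes the lowest Paused value exceeded the highest 2i value. Serum held 17.2, 66.5 and 11.8 FPKM of Pou3f1 and 69.9, 91.4 and 144 of Tcf15. Otx2, an activator of the formative programme, rose from 0.692, 7.07 and 5.66 to 36.8, 24.3 and 14.3 FPKM (log2 fold change 2.44 ± 0.61, adjusted p = 0.02), with its lowest 2i value in E14, and was not called without Paused E14 (adjusted p = 0.066).

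Genes of LIF signalling, which sustains ES cells through STAT3, went both ways. Of 18 tested, 6 rose and 4 fell (4 and 8 on the authors' scale). The kinase Pim1, a STAT3 target, rose from 78.7, 39 and 47.1 to 186, 232 and 129 FPKM (log2 fold change 1.74 ± 0.30, adjusted p = 0.0053). The interleukin-6 receptor gene Il6ra fell from 5.63, 7.02 and 5.34 to 0.401, 0.268 and 0.139 FPKM (log2 fold change -2.46 ± 0.19).

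**Figure D3:**
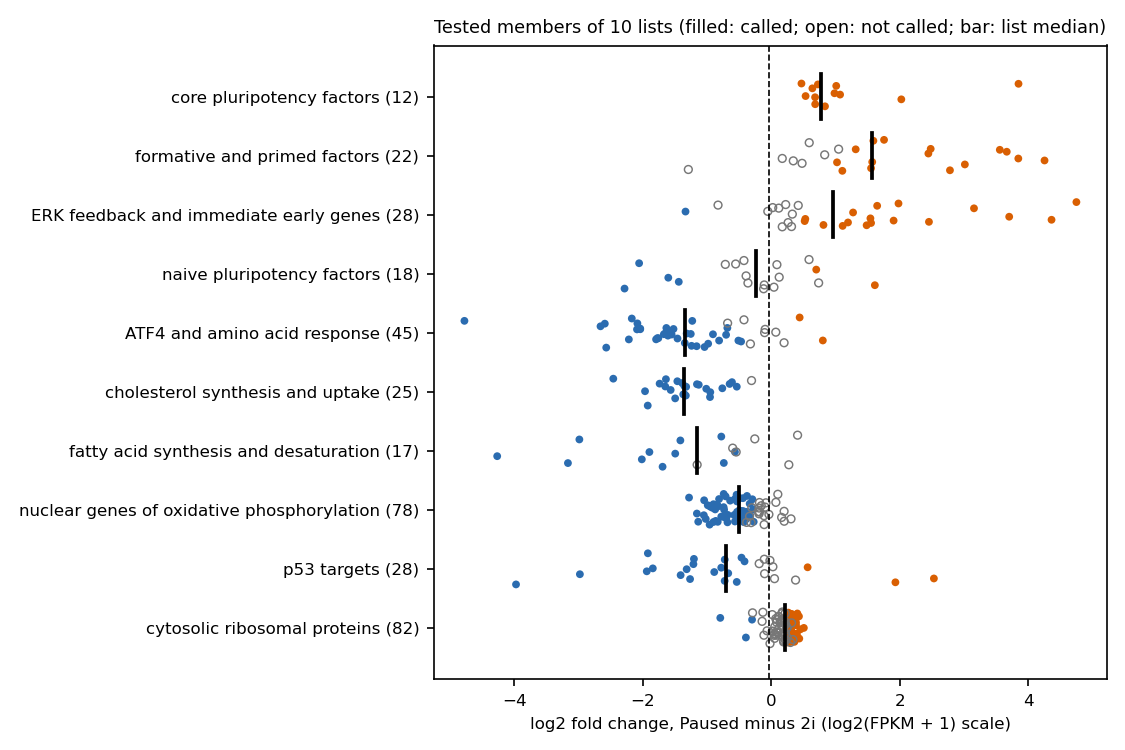
Log2 fold change of Paused against 2i for every tested member of 10 lists (1 point per gene, filled where called and open where not), with the list median as a vertical bar and the median of all 12711 tested genes (-0.033) as a dashed line. Core, formative and ERK genes lie mostly to the right, the ATF4, cholesterol, fatty acid, p53 and oxidative phosphorylation genes mostly to the left, and naive factors on both sides.

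The Dnmt3 genes of DNA methylation were higher in Paused, and the maintenance factor Uhrf1 was lower. Dnmt3l, the cofactor without catalytic activity (chromosome 10, 78042287 to 78063622), stood at 403, 907 and 251 FPKM in Paused and 32.4, 45.1 and 7.69 in 2i (log2 fold change 4.25 ± 0.29, adjusted p = 0.00046). The v6.5 line held most and Oct4 GiP least in both states and in Serum (362, 491 and 229). The methyltransferase Dnmt3b rose from 50.2, 26.1 and 10.7 to 171, 214 and 74.9 FPKM (log2 fold change 2.48 ± 0.35). Dnmt3a rose from 25, 7.26 and 12.4 to 92.2, 229.5 and 42.3 FPKM (log2 fold change 2.78 ± 0.69, adjusted p = 0.019), and was not called without Paused E14 or Paused v6.5 (adjusted p = 0.06 to 0.076). Uhrf1, which brings DNMT1 to replicating DNA, fell from 299, 247 and 200.5 to 141, 125 and 162 FPKM (log2 fold change -0.78 ± 0.15, adjusted p = 0.0076). Tet1, which oxidises methylcytosine, rose from 43.6, 41.9 and 34.8 to 73.5, 77.9 and 90.5 FPKM (log2 fold change 0.99 ± 0.17). In all, 4 of 16 tested genes of this list rose and 4 fell (3 and 7 on the authors' scale).

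Several germline genes, many of them silenced by promoter methylation in somatic cells, were lower in Paused. Of 40 tested, 16 fell and 6 rose (median -0.22; 19 and 2 on the authors' scale), and without the Paused E14 library 11 fell and 3 rose, while 3 rose without 2i Oct4 GiP. Dazl, an RNA-binding protein of germ cells, fell from 44, 18.8 and 16.8 to 2.2, 3.46 and 1.31 FPKM (log2 fold change -2.97 ± 0.31, adjusted p = 0.0012), and Serum held 2.46, 1.33 and 1.46. Stra8, a gatekeeper of meiosis, fell from 257, 29.5 and 43.3 to 3.89, 12.4 and 0.685 FPKM (log2 fold change -3.87 ± 0.87, adjusted p = 0.014), with E14 far above the other 2i lines, and was not called without Paused E14, 2i Oct4 GiP or Paused Oct4 GiP (adjusted p = 0.051 to 0.063). Rec114, a factor of meiotic recombination, fell from 39.8, 38.3 and 29.8 to 2.7, 0.918 and 0.611 FPKM (log2 fold change -4.03 ± 0.35). The testis tubulin Tuba3a fell too (-3.02), as did its near-identical copy Tuba3b (-2.79), and reads of the pair cannot be told apart here. Of the 5 tested Rhox genes 4 fell, Rhox13 from 8.1, 6.54 and 12.2 to 1.26, 0.516 and 0.658 FPKM and Rhox6 with a log2 fold change of -1.07. None of 14 genes of the 2-cell-like state was called by limma, and 0 had an unadjusted p under 0.05. Zscan4f stood at 8.79, 6.36 and 4.55 FPKM in Paused and 0.455, 6.65 and 4.24 in 2i (adjusted p = 0.41).

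Promoters of many germline genes are known to hold an E-box that repressors bind, and the promoters of 2 members that moved apart are shown with it in capitals. RefSeq promoters (GRCm38.p6, 250 bases before to 50 after each start) were found for 9168 tested genes and 37 of the 40. CACGTG, which reads the same on both strands, was in 13 of the 37 (35.1%), against 12.1% of tested genes and 7.15% of all 32851 promoters. Of the 13, 3 rose (Ddx4, Syce2 and Tdrd1), 2 fell (Fkbp6 and Slc25a31) and 8 were not called, with a median of 0.26. The call of Ddx4 was lost without Paused E14, 2i v6.5, Paused v6.5, 2i Oct4 GiP or Paused Oct4 GiP (adjusted p = 0.067 to 0.15), and that of Slc25a31 without Serum E14, 2i E14, Paused E14, 2i v6.5, Serum Oct4 GiP, 2i Oct4 GiP or Paused Oct4 GiP (adjusted p = 0.07 to 0.18). Of the 24 without it, 3 rose and 13 fell, with a median of -1.22. Fkbp6, a co-chaperone of the piRNA pathway, fell from 51.4, 38 and 21.3 to 7.7, 12.1 and 4.28 FPKM (log2 fold change -2.08 ± 0.39, adjusted p = 0.007). Tdrd1, a tudor protein of the same pathway, rose from 0.142, 0.277 and 0.153 to 1.17, 2.25 and 1.12 FPKM (log2 fold change 1.05 ± 0.16, adjusted p = 0.0034). All 5 were chosen after their values were seen. The 250 bases before each start are chr5:135350045-135350294 on the minus strand and chr19:56825959-56826208 on the plus strand.
Fkbp6: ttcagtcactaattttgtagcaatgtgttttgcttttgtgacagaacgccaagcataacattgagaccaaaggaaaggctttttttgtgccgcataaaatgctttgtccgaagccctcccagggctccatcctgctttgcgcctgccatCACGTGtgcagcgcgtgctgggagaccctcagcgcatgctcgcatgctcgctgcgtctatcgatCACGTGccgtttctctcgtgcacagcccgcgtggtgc
Tdrd1: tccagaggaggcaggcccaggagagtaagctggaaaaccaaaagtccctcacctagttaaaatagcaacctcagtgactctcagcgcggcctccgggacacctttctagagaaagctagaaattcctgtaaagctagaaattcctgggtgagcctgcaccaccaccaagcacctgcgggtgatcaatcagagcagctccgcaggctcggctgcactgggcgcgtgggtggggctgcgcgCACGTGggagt

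Regulators of chromatin moved in both directions in FPKM. Of 31 tested polycomb genes 8 rose and 8 fell (3 and 17 on the authors' scale), and 5 fell without Paused E14. Phc1, a subunit of the PRC1 complex, rose from 94.6, 93.3 and 84.1 to 257, 307 and 242 FPKM (log2 fold change 1.55 ± 0.10, adjusted p = 0.0004). Jarid2, a cofactor of PRC2, rose from 59.4, 78.9 and 66.6 to 201, 188 and 166 FPKM (log2 fold change 1.43 ± 0.15). Both were even across the lines of each state. The chromobox gene Cbx8 fell from 4.75, 4.36 and 3.3 to 0.522, 0.616 and 0.326 FPKM (log2 fold change -1.78 ± 0.16). Of 23 genes of H3K9 methylation and retroelement silencing, 9 rose and 4 fell (1 and 11 on the authors' scale). The demethylase Kdm4c rose from 13.5, 10.6 and 11.1 to 38.3, 49.3 and 37.4 FPKM (log2 fold change 1.74 ± 0.17). Trim28, the KAP1 corepressor, rose from 592, 575 and 535 to 922, 975 and 916 FPKM (log2 fold change 0.72 ± 0.11). Trim28 binds the zinc finger proteins that recognise retroelements. Of 25 imprinted genes 8 rose and 3 fell (5 and 7 on the authors' scale), and 4 rose without Paused E14 or Paused v6.5. Phlda2, expressed from the maternal allele, rose from 1.08, 4.19 and 3.52 to 38.7, 36.2 and 36.2 FPKM (log2 fold change 3.38 ± 0.41, adjusted p = 0.0019). Peg10, expressed from the paternal allele, rose from 4.03, 5.42 and 7.72 to 43.9, 85.2 and 20.3 FPKM (log2 fold change 2.73 ± 0.48). The paternally expressed Plagl1 fell from 16.2, 10.7 and 12.2 to 0.0784, 1.77 and 0.838 FPKM (log2 fold change -2.97 ± 0.35).

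Genes of the mTor pathway itself did not share 1 direction in FPKM. Of 47 tested genes 13 fell and 7 rose (27 and 2 on the authors' scale), with a median of 0.02, near that of all genes, and 3 rose without the Paused Oct4 GiP library. Ddit4 (REDD1), a stress-induced inhibitor of mTORC1, stood at 10.0, 8.48 and 3.73 FPKM in Paused and 132, 75.9 and 72.1 in 2i (log2 fold change -3.52 ± 0.30, adjusted p = 0.00074), and Serum lay between at 26.6, 43.8 and 28.5. Sesn2, a leucine sensor, fell from 101, 82.5 and 80.2 to 44.3, 29.8 and 30.9 FPKM (log2 fold change -1.32 ± 0.08). Its paralog Sesn1 fell from 8.93, 12.1 and 11.1 to 2.95, 5.04 and 2.49 FPKM (log2 fold change -1.41 ± 0.17). All 3 inhibitors were lower in every Paused library than in any 2i library. Rragb, a Rag GTPase that carries the amino acid signal to mTORC1, went the other way, from 7.41, 4.8 and 16.4 to 36.9, 17.5 and 40.4 FPKM (log2 fold change 1.70 ± 0.38, adjusted p = 0.013), and was not called without Paused E14 or Paused Oct4 GiP (adjusted p = 0.053 to 0.061). Eif4ebp1, the translation repressor that mTORC1 phosphorylates, fell from 1188, 1134 and 1169 to 413, 489 and 507 FPKM (log2 fold change -1.31 ± 0.09, adjusted p = 0.00053). Mtor, the gene of the drug target, was slightly higher in Paused, at 26.5, 25.1 and 25.7 against 21.4, 18.7 and 17.4 FPKM (log2 fold change 0.41 ± 0.09, adjusted p = 0.011). It stood at -0.13 on the authors' scale and was not called without Paused Oct4 GiP (adjusted p = 0.051). Deptor, a subunit and inhibitor of both complexes, was not called, at 9.29, 11.8 and 9.09 FPKM in Paused and 12.3, 8.45 and 8.62 in 2i (adjusted p = 0.85).

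Genes of the translation machinery were a little higher in Paused as FPKM, and lower once the authors' constants were applied. Of 82 tested cytosolic ribosomal proteins 32 rose and 3 fell (median 0.22), but on the authors' scale 0 rose and 42 fell, and the number that rose when 1 library was left out was 20 without Serum E14, 19 without 2i E14, 8 without Paused E14, 14 without 2i v6.5, 18 without Paused v6.5, 19 without 2i Oct4 GiP and 9 without Paused Oct4 GiP. Rps4x stood at 2004, 1897 and 1896 FPKM in Paused and 1387, 1373 and 1325 in 2i (log2 fold change 0.50 ± 0.07, adjusted p = 0.0024; -0.06 on the authors' scale). Rps27l, a ribosomal protein paralog that p53 induces, fell from 687, 681 and 691 to 411, 377 and 398 FPKM (log2 fold change -0.80 ± 0.09). Reads of such genes can be shared with their many copies. Of 50 genes of ribosome biogenesis 30 rose and 0 fell (median 0.33), against 0 and 11 on the authors' scale, and the number that rose was 19 without Paused E14, 19 without Paused v6.5, 18 without 2i Oct4 GiP and 18 without Paused Oct4 GiP. Nop58, a protein of small nucleolar particles, rose from 151, 152 and 139.9 to 262, 246 and 236 FPKM (log2 fold change 0.74 ± 0.07). Rrn3, an initiation factor of RNA polymerase I, rose from 55.2, 56.4 and 47.6 to 86, 98 and 96.1 FPKM (log2 fold change 0.81 ± 0.09). Serum held 240.3, 223 and 236 FPKM of Nop58. Over the 50 genes of ribosome biogenesis, the Paused mean was above the Serum mean in only 8 and the 2i mean in 0. Of 46 translation factors 13 rose and 6 fell, against 0 and 24 on the authors' scale. The elongation factor Eef2 rose from 1248, 1226 and 1256 to 2196, 2086 and 1896 FPKM (log2 fold change 0.73 ± 0.11). The exchange factor subunit Eif2b4 fell from 60.4, 52.8 and 57.7 to 33.9, 31.5 and 34.6 FPKM (log2 fold change -0.75 ± 0.09). Leaving out 1 library gave 7 without Paused E14, 5 without 2i v6.5, 4 without Paused v6.5, 6 without Serum Oct4 GiP, 5 without 2i Oct4 GiP and 4 without Paused Oct4 GiP for the rises.

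Genes of the amino acid response fell together. ATF4 induces amino acid synthesis, amino acid transporters and tRNA ligases, downstream of both mTORC1 and the stress kinases that phosphorylate eIF2. Of 45 tested genes 36 fell and 2 rose (median -1.35), and 42 fell on the authors' scale. Nupr1, a small stress-induced chromatin protein (chromosome 7, 126623246 to 126625470), stood at 246, 106 and 110.1 FPKM in 2i and 6.52, 3.6 and 3.09 in Paused (log2 fold change -4.78 ± 0.19, adjusted p = 0.00026). The states were far apart in every line. Asns, which makes asparagine, fell from 634, 535 and 354 to 100.3, 82.9 and 63.8 FPKM (log2 fold change -2.59 ± 0.18, adjusted p = 0.00052). Trib3, a pseudokinase that restrains ATF4, fell from 72.1, 39.2 and 50.4 to 11.5, 6.46 and 6.74 FPKM (log2 fold change -2.57 ± 0.16). The E14 line held the most of both genes in 2i. The related factor Atf5 fell from 86.4, 35.1 and 44.2 to 6.89, 7 and 7.96 FPKM (log2 fold change -2.66 ± 0.28). In each of these genes Serum stood nearer to Paused than to 2i, with 172, 79.6 and 93.3 FPKM of Asns.

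The element that ATF4 binds was looked for in the promoters of this list. TGATGNAA, searched on both strands, was in 14 of the 35 members with a RefSeq promoter (40%), against 2.66% of tested genes and 3.97% of all promoters. Of the 14, 13 fell and 0 rose (median -1.58), and of the 21 without it 14 fell and 1 rose (median -1.32). Over all tested genes with a promoter, the element was in 3.13% of those called lower and 2.27% of those called higher. The promoters of 4 members that fell are shown beside that of Slc7a11, the cystine transporter, which holds 2 matches and was not called. Chac1, which degrades glutathione, stood at 15.7, 4.84 and 7.73 FPKM in Paused and 86.8, 22.7 and 40.3 in 2i (log2 fold change -2.22 ± 0.32, adjusted p = 0.0029). Pycr1, the last enzyme of proline synthesis, stood at 9.04, 5.04 and 8.61 FPKM in Paused and 48.7, 18 and 23.7 in 2i (log2 fold change -1.78 ± 0.20, adjusted p = 0.0016). Slc7a11 stood at 7.09, 6.27 and 7.13 FPKM in Paused and 8.66, 5.51 and 5.59 in 2i (log2 fold change 0.07 ± 0.17, adjusted p = 0.77), with the 2 states overlapping. These 3 genes were chosen after their values were seen. Capitals mark the element in the 250 bases before each start, which lie at chr7:126625471-126625720 (minus strand), chr6:7693210-7693459 (minus), chr2:119350992-119351241 (plus), chr11:120643749-120643998 (minus) and chr3:50443614-50443863 (minus). The element starts 110 bases before the start of Nupr1 and 23 before that of Asns.
Nupr1: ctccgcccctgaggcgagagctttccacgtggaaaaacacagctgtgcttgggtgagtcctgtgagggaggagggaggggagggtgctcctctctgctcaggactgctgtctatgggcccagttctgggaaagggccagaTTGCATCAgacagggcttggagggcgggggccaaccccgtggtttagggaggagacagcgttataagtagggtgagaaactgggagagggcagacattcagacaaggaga
Asns: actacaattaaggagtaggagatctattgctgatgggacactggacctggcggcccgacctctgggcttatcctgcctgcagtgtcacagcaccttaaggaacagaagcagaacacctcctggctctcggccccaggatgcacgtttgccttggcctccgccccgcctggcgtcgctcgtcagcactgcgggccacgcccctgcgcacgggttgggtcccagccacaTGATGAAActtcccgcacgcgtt
Chac1: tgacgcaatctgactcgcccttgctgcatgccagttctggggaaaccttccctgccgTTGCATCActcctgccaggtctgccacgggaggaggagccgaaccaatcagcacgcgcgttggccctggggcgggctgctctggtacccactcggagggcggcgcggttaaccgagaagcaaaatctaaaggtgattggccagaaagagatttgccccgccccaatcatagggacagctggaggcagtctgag
Pycr1: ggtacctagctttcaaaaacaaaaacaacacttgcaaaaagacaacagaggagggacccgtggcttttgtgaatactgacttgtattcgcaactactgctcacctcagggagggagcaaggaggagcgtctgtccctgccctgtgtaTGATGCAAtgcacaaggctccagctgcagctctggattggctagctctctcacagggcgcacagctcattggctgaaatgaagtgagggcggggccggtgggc
Slc7a11: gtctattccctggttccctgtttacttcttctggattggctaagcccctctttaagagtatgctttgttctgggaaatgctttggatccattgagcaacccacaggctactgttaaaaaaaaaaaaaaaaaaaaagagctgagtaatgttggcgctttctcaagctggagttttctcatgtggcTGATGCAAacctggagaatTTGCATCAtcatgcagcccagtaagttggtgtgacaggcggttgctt

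Genes of cholesterol synthesis and uptake were lower in Paused almost throughout. SREBP factors, which mTORC1 activates, drive the genes of cholesterol and unsaturated fatty acids. Of 25 tested genes of cholesterol synthesis and uptake 24 fell and 0 rose (median -1.35, and -1.57, -1.39 and -1.06 in the 3 lines). Msmo1, a sterol demethylating oxygenase, stood at 7.3, 13.4 and 19.8 FPKM in Paused and 51.5, 98.3 and 78.8 in 2i (log2 fold change -2.46 ± 0.23, adjusted p = 0.00093). Hmgcs1, which starts the mevalonate pathway, fell from 106, 141 and 114 to 25.2, 29.1 and 35.7 FPKM (log2 fold change -1.97 ± 0.21, adjusted p = 0.0013). Insig1, the protein that holds SREBP in the endoplasmic reticulum, fell as well, from 89.4, 78.5 and 77.8 to 20.7, 20.1 and 32.1 FPKM (log2 fold change -1.74 ± 0.29). In these 3 genes Oct4 GiP kept the highest Paused level. The sterol element TCACNCCAC, both strands, was in 1 of 18 members with a promoter (5.56%), Hmgcs1, against 1.48% of tested genes and 1.24% of all promoters. That promoter is shown (chr13:119690101-119690350, plus strand, 250 bases before the start) with the element in capitals, 137 bases before the start.
Hmgcs1: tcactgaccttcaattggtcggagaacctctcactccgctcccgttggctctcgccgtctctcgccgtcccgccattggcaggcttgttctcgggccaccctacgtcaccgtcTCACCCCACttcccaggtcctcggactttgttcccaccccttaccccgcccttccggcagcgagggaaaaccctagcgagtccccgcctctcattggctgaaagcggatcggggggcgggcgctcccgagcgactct

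Of 17 tested genes of fatty acid synthesis and desaturation, 11 fell and 0 rose (median -1.16). Scd1, the main delta-9 desaturase (chromosome 19, 44394450 to 44407709), stood at 72.4, 56.3 and 60.4 FPKM in 2i and 1.49, 2.14 and 3.61 in Paused (log2 fold change -4.27 ± 0.30, adjusted p = 0.00052). Its close copy Scd2 fell from 220.0, 133 and 171 to 10.1, 18.7 and 31.1 FPKM (log2 fold change -3.17 ± 0.43), and some reads of the pair may be shared. Fads2, which desaturates polyunsaturated fatty acids, was level within each state, at 66.6, 81.3 and 64.6 FPKM in 2i and 7.95, 7.62 and 8.45 in Paused (log2 fold change -2.99 ± 0.14). Genes of the opposite pathway fell too: of 22 tested genes of fatty acid oxidation 15 fell and 0 rose (median -0.77). Cpt1a, the gate of entry into mitochondria, fell from 61.9, 37.9 and 44.5 to 14.6, 9.84 and 16.4 FPKM (log2 fold change -1.75 ± 0.16, adjusted p = 0.00084), while Serum was lowest at 8.65, 4.33 and 5.27. The carnitine carrier Slc25a20 fell from 52.1, 74.3 and 54 to 11.6, 18 and 7.97 FPKM (log2 fold change -2.23 ± 0.36).

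Nuclear genes of mitochondrial respiration fell in Paused by a modest and even amount. Of 78 tested genes of oxidative phosphorylation 57 fell and 0 rose (median -0.51, and -0.62, -0.51 and -0.46 in the 3 lines). Uqcrq, of complex III, stood at 210.2, 170.5 and 197 FPKM in Paused and 544, 391 and 482 in 2i (log2 fold change -1.28 ± 0.09, adjusted p = 0.00052). Atp5g1, of the ATP synthase ring, fell from 355, 301 and 349 to 161, 142 and 144 FPKM (log2 fold change -1.16 ± 0.07). Ndufa5, of complex I, fell from 176, 161 and 188 to 77.1, 89.5 and 85 FPKM (log2 fold change -1.05 ± 0.09). The states did not overlap for these 3 genes. Of 73 proteins of the mitochondrial ribosome 31 fell and 2 rose (median -0.25), and the number that fell was 16 without Paused E14, 19 without Paused v6.5 and 20 without Paused Oct4 GiP. The largest fall among them was that of Mrpl14, from 206, 163 and 270.5 to 92.3, 65.2 and 87 FPKM (log2 fold change -1.36 ± 0.12). Of 23 enzymes of the citric acid cycle 11 fell and 0 rose. The cytosolic isocitrate dehydrogenase Idh1, which makes NADPH, was almost constant within each state, at 106, 102 and 102 FPKM in 2i and 15.6, 16 and 16.6 in Paused (log2 fold change -2.61 ± 0.11, adjusted p = 0.00026). Citrate synthase, Cs, fell from 126, 108 and 114 to 67.9, 65.7 and 73.4 FPKM (log2 fold change -0.74 ± 0.09).

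Glycolysis did not move as a group in FPKM. Of 32 tested genes 8 rose and 7 fell (7 and 16 on the authors' scale), and 4 fell without Paused E14 or Paused v6.5. Slc16a3, which exports lactate, stood at 34, 53.5 and 12.2 FPKM in Paused and 1.57, 1.38 and 1.17 in 2i (log2 fold change 3.63 ± 0.33, adjusted p = 0.00089). Pdk1, which keeps pyruvate out of mitochondria, rose from 26, 18.1 and 21.6 to 65.3, 88.3 and 68.9 FPKM (log2 fold change 1.71 ± 0.18). In contrast to both, the hexokinase Hk1 fell from 53.7, 43.4 and 46.8 to 9.6, 6.35 and 4.7 FPKM (log2 fold change -2.68 ± 0.27). Among 28 genes of nucleotide synthesis 8 fell and 5 rose (17 and 0 on the authors' scale), and 4 fell without Paused E14 or Paused v6.5 and 5 without 2i Oct4 GiP. The mitochondrial folate enzymes Mthfd2 and Shmt2 are also in the ATF4 list. Mthfd2 fell from 169, 78.5 and 84.6 to 26.1, 20.4 and 27.5 FPKM (log2 fold change -2.04 ± 0.28, adjusted p = 0.0026), and E14 was highest in 2i. Shmt2 fell from 371, 204 and 228 to 89.7, 87 and 104 FPKM (log2 fold change -1.46 ± 0.18).

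The genes Bhmt, Dmgdh and Bhmt2, from the list of betaine, methionine and one-carbon enzymes, stood above 5 FPKM in every 2i library. They stood below 2 FPKM in every Paused and Serum library. Bhmt, betaine-homocysteine methyltransferase, stood at 17.2, 18.1 and 25.3 FPKM in 2i, 0.151, 0.16 and 0.0592 in Paused and 1.17, 0.0416 and 0.395 in Serum (log2 fold change -4.22 ± 0.26, adjusted p = 0.00035). Dmgdh, which acts on the product of that reaction, stood at 11.1, 16.7 and 29.4 against 0.244, 0.137 and 0.11 FPKM (log2 fold change -4.01 ± 0.36). The neighbouring copy Bhmt2 stood at 6.78, 9.54 and 16.5 against 0.12, 0.206 and 0.132 FPKM (log2 fold change -3.29 ± 0.28). For Dmgdh and Bhmt2 the Oct4 GiP line was highest in 2i. Gldc, of the glycine cleavage system, went the other way, from 39.8, 17.2 and 10.3 to 89.4, 57.4 and 64.6 FPKM (log2 fold change 1.79 ± 0.27). Of all 19 tested genes of this list 7 fell and 3 rose (12 and 1 on the authors' scale).

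Lysosome genes, which TFEB and TFE3 drive when mTORC1 is off, were more often lower than higher in Paused. Of 54 tested, 25 fell and 3 rose (median -0.35; 43 and 1 on the authors' scale), and 16 fell without the Paused v6.5 library. Against Serum, the Paused mean was higher in 39 of the 54 and the 2i mean in 49, with no test made of this. Ctsb, a cathepsin protease, was even within each state, at 41.7, 39 and 43.1 FPKM in 2i and 12.6, 12 and 13.7 in Paused (log2 fold change -1.62 ± 0.08, adjusted p = 0.00026), and Serum held 13.8, 13.9 and 14.2. The cathepsin Ctsc fell from 16.2, 14.8 and 6.44 to 1.33, 1.22 and 0.829 FPKM (log2 fold change -2.58 ± 0.24). A few members went the other way. The membrane protein Scarb2 rose from 14.8, 12.5 and 12.1 to 42.7, 24.7 and 44.2 FPKM (log2 fold change 1.40 ± 0.19). Ctsl stood at 111, 97.5 and 90.6 FPKM in Paused and 80.0, 77.1 and 84.7 in 2i, each Paused value above each 2i value, and was not called (log2 fold change 0.30 ± 0.15, adjusted p = 0.15). The E-box core of the TFEB site, CACGTG, was in 16 of 41 members with a promoter (39%). Of the 16, 6 fell and 1 rose (median -0.27), and of the 25 without it 14 fell and 2 rose (median -0.42). Lamp1, a main lysosomal membrane protein chosen after its values were seen, has 4 matches, the most shown here, and stood at 146, 189.8 and 187 FPKM in Paused and 224, 276 and 269 in 2i (log2 fold change -0.56 ± 0.07, adjusted p = 0.0024). Its 250 bases before the start (chr8:13158911-13159160, plus strand) are shown with the matches in capitals.
Lamp1: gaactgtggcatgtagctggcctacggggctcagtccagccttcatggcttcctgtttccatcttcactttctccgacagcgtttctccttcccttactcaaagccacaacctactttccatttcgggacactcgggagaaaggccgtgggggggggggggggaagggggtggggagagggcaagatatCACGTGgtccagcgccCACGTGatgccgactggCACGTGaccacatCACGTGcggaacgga

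Autophagy genes went both ways in FPKM, with 15 of 43 lower and 7 higher (29 and 3 on the authors' scale), and 8 lower without the Paused E14 library. Bnip3, a mitophagy receptor, rose from 4.35, 1.66 and 0.78 to 18.6, 15.1 and 8.27 FPKM (log2 fold change 2.28 ± 0.17, adjusted p = 0.00055). Mitf, a relative of TFEB, fell from 8.88, 7.86 and 8.08 to 1.84, 1.34 and 2.95 FPKM (log2 fold change -1.64 ± 0.25). Targets of FoxO factors, which AKT and mTORC2 hold in the cytoplasm, were listed together with genes of insulin receptor signalling. Of the 26 tested genes of this list 13 rose and 5 fell in FPKM (median 0.54), against 7 and 8 on the authors' scale. Sesn1, named above with the mTor genes, is also in this list and fell. Klhl24, a ubiquitin ligase adaptor, stood at 43.8, 36.4 and 44 FPKM in Paused and 10.8, 8.34 and 11 in 2i (log2 fold change 1.94 ± 0.11, adjusted p = 0.00031), and Serum held 11.3, 7.75 and 8.15. Txnip, which limits glucose uptake, rose from 34.1, 52.9 and 76.2 to 193, 168 and 146 FPKM (log2 fold change 1.68 ± 0.26). The cell death gene Bcl2l11 (BIM) rose from 5.13, 3.15 and 2.84 to 9.79, 12.8 and 8.88 FPKM (log2 fold change 1.31 ± 0.22).

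**Figure D4:**
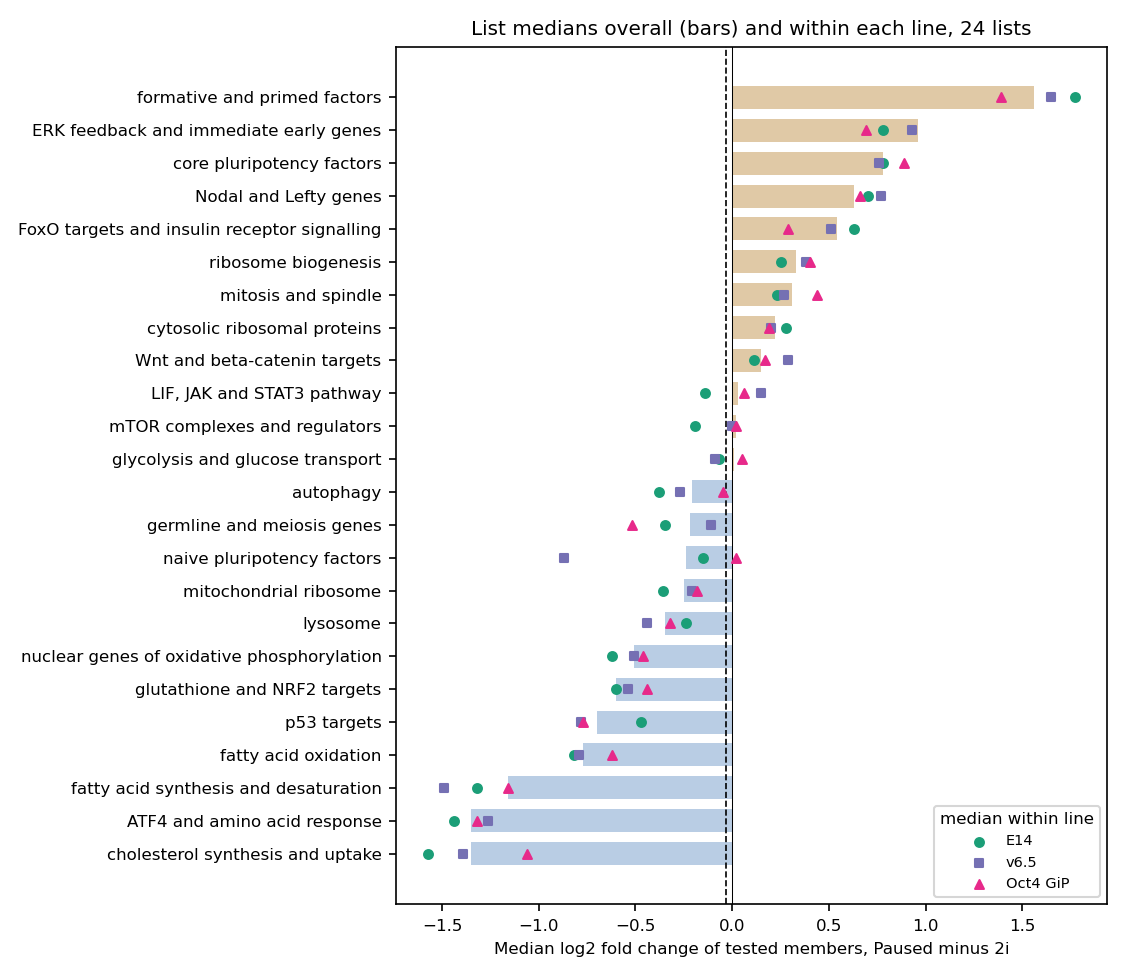
Median log2 fold change of Paused against 2i for 24 lists (bars), with the medians within E14, v6.5 and Oct4 GiP as separate symbols and the median of all tested genes (-0.033) as a dashed line. The 3 lines lie on the same side of that line for the formative, ERK, ATF4, cholesterol, fatty acid, p53 and oxidative phosphorylation lists, and on both sides for the naive factors.

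Most targets of the tumour suppressor p53 were lower in Paused. Of 28 tested, 18 fell and 3 rose (median -0.70). Cdkn1a (p21), the inhibitor of cyclin-dependent kinases, stood at 98.6, 107 and 134 FPKM in 2i and 16, 11.8 and 12.5 in Paused (log2 fold change -2.98 ± 0.17, adjusted p = 0.00031). Serum held 24.8, 27.7 and 23.5, nearer to Paused. Gdf15, a stress-induced hormone, fell from 29.9, 38.5 and 52.2 to 1.91, 1.28 and 1.52 FPKM (log2 fold change -3.97 ± 0.23). Phlda3, an inhibitor of AKT, fell from 64.3, 89.1 and 74.5 to 21.3, 21.2 and 14.8 FPKM (log2 fold change -1.94 ± 0.14). Among the other inhibitors of the cell cycle the directions were mixed. Cdkn2a, the locus of p16 and p19ARF, fell from 27.1, 27.6 and 39.8 to 3.37, 9.04 and 4.49 FPKM (log2 fold change -2.36 ± 0.30). The imprinted inhibitor Cdkn1c (p57) rose from 0.559, 1.68 and 2.96 to 24.9, 51.4 and 14.8 FPKM (log2 fold change 3.45 ± 0.43). Cdkn1b (p27) was slightly lower in Paused, at 26.1, 27.2 and 33.7 against 37, 40.5 and 42 FPKM (log2 fold change -0.45 ± 0.08, adjusted p = 0.0067).

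Genes of mitosis were more often higher in Paused in FPKM and more often lower on the authors' scale. Of 46 tested genes of mitosis and the spindle 24 rose and 2 fell (median 0.31), but on the authors' scale 1 rose and 14 fell. Top2a, which untangles sister chromatids, rose from 129.6, 132 and 124 to 250.4, 220.5 and 219 FPKM (log2 fold change 0.83 ± 0.08, adjusted p = 0.00091). The proliferation antigen Mki67 rose from 31.2, 29.9 and 29.2 to 48.6, 53.3 and 64.2 FPKM (log2 fold change 0.85 ± 0.13). The member with the largest change fell. Pttg1 (securin), which holds sister chromatids together until anaphase, fell from 75.5, 121 and 164 to 29.6, 15.4 and 26.1 FPKM (log2 fold change -2.28 ± 0.29). Of 43 genes of DNA replication 9 fell and 5 rose (35 and 0 on the authors' scale), and the members with the largest falls supply deoxynucleotides. Thymidine kinase Tk1 fell from 111, 123 and 92.1 to 25, 27.5 and 36.3 FPKM (log2 fold change -1.85 ± 0.18). Rrm2 of ribonucleotide reductase fell from 162, 196 and 146 to 73.2, 83 and 105 FPKM (log2 fold change -0.95 ± 0.15).

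Myc and its relative Mycn, growth-promoting transcription factors, were both higher in Paused. Myc (chromosome 15, 61985341 to 61990361) stood at 66.5, 99.2 and 84 FPKM in Paused and 3.8, 5.4 and 7.51 in 2i (log2 fold change 3.70 ± 0.15, adjusted p = 0.00026). Serum held 55.2, 63.3 and 64.6, below Paused in each line. Mycn rose from 33.5, 40.6 and 57.2 to 207, 149 and 199.8 FPKM (log2 fold change 2.08 ± 0.19, adjusted p = 0.00089), and Serum held 146, 196 and 194. Both calls held when each library was left out in turn. Of 14 tested genes of the Myc, Max and Mxd network 6 rose and 2 fell (2 and 3 on the authors' scale). Among partners that compete with Myc, Mnt rose from 17.6, 15.3 and 20.4 to 34.8, 30.3 and 35.8 FPKM (log2 fold change 0.89 ± 0.09). Mga rose from 14.1, 14.5 and 12.3 to 23.8, 27.8 and 25.8 FPKM (log2 fold change 0.87 ± 0.09).

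Targets of NRF2 and glutathione genes fell or were not called. Of 33 tested, 16 fell and 0 rose (median -0.60), and 10 fell without the Paused E14 library. Nqo1, a quinone reductase, fell from 30.8, 116 and 99.6 to 6.09, 10.9 and 8.3 FPKM (log2 fold change -2.97 ± 0.26, adjusted p = 0.00078), with E14 lowest in 2i. Gss, the last enzyme of glutathione synthesis, fell from 38.8, 42.4 and 49.2 to 11.3, 6.95 and 7.37 FPKM (log2 fold change -2.24 ± 0.26). Catalase, Cat, fell from 44.5, 58.4 and 60.5 to 15.5, 14.5 and 17.6 FPKM (log2 fold change -1.71 ± 0.14). None of the 3 overlapped between the states. Of 17 interferon response genes 5 rose and 6 fell (4 and 8 on the authors' scale; 1 rose without Paused E14, 3 without 2i v6.5 and 2 without Paused v6.5, and 3 fell without 2i v6.5, Paused v6.5, 2i Oct4 GiP or Paused Oct4 GiP). The antiviral membrane protein Bst2 rose from 19.05, 41.1 and 15 to 123, 156 and 46 FPKM (log2 fold change 2.03 ± 0.25). Irak1, a kinase below the interleukin-1 and Toll-like receptors, was lower in Paused, at 109, 106 and 112 against 177, 116 and 188 FPKM (log2 fold change -0.53 ± 0.14, adjusted p = 0.021), and Serum held 17.9, 15.9 and 17.3. The call of Irak1 was lost without 2i E14, Paused E14, 2i Oct4 GiP or Paused Oct4 GiP (adjusted p = 0.067 to 0.092). Its relative Irak4 fell from 3, 3.28 and 3.96 to 0.889, 0.559 and 0.367 FPKM (log2 fold change -1.47 ± 0.18).

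Genes of cell adhesion and the cytoskeleton were more often higher than lower in Paused in FPKM, though not on the authors' scale. Of 27 tested genes of simple epithelium and adhesion 7 rose and 3 fell (3 and 6 on the authors' scale). These are 25.9% and 11.1%, against 19.8% and 24.6% of all tested genes. In all 37% of the list was called, a smaller share than the 44.4% of all tested genes. Epcam, an epithelial adhesion molecule, stood at 146, 167 and 126 FPKM in Paused, 23.6, 28.1 and 15.8 in 2i and 79.4, 171 and 76.9 in Serum (log2 fold change 2.68 ± 0.19, adjusted p = 0.00052). The tight junction gene Cldn6 rose from 4.39, 2.6 and 1.45 to 44.3, 33.3 and 16.5 FPKM (log2 fold change 3.05 ± 0.22). The desmosome gene Dsg2 fell from 25.8, 34.1 and 24.5 to 8.39, 8.31 and 7.68 FPKM (log2 fold change -1.66 ± 0.19). Krt8, a keratin of simple epithelia whose copies can share reads, overlapped between the states, at 9.58, 7.16 and 3.45 FPKM in Paused and 6.72, 12.8 and 11.3 in 2i (adjusted p = 0.48). Of 26 actin and smooth muscle genes 9 rose and 4 fell (34.6% and 15.4%; 7 and 7 on the authors' scale). The myosin light chain Myl9 rose from 0.523, 0.363 and 0.253 to 10.8, 10.3 and 5.72 FPKM (log2 fold change 2.81 ± 0.20), below the 34.3, 18.5 and 21 of Serum.

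Markers of other lineages went both ways. Of 13 tested endoderm markers 1 rose and 3 fell, of 4 mesoderm markers 0 and 2, of 5 neural markers 3 and 0, of 11 trophoblast markers 0 and 5, and of 7 feeder markers 1 and 1. The laminin gene Lamb1 rose from 3.48, 7.97 and 6 to 38.5, 37.6 and 36.5 FPKM (log2 fold change 2.55 ± 0.23, adjusted p = 0.00088). The homeobox gene Hhex fell from 10.2, 11.7 and 7.74 to 2.61, 3.32 and 3.4 FPKM (log2 fold change -1.39 ± 0.15). Pax6, a neural homeobox gene, rose from 0.429, 0.245 and 0.678 to 15.2, 5.29 and 20.2 FPKM (log2 fold change 3.17 ± 0.31), with Serum at 3.06, 3.31 and 7.44. Gsc, of the organiser and mesendoderm, fell from 3.79, 5.43 and 7.06 to 0.291, 0.112 and 0.114 FPKM (log2 fold change -2.43 ± 0.27).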

How the data were processed

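RNA was sequenced from 3 mouse ES lines in 3 conditions, 1 library each. The table that the authors deposited gives FPKM per gene and, in a second set of columns, a normalized expression signal that is FPKM times 1 constant per library, whose origin the sources do not give. Cuffnorm and the build mm10 are named in the submitters' processing notes. Aligner, annotation and strand setting: not given in the sources used here. So overlapping and antisense genes are uncertain. All 18 value columns belong to these libraries and 0 were left out. Of 29801 rows, 5644 have no gene name and 113 repeat another row, which left 24044, and the 12711 rows that reached FPKM of 1 in 3 libraries or more were tested. Eef1a1 is listed at 0 in every library, so an exact 0 may be a failed estimate.

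Values were fitted as log2(FPKM + 1) with limma 3.58.1 in R 4.3.3 (trend), over all 9 libraries with the cell line as a block, with Benjamini-Hochberg adjustment over all tested rows and a threshold of 0.05. The line pairs the libraries by its label. Deviations of same-line Paused and 2i libraries correlated at 0.064, 0.154 and 0.077, against -0.124 to 0.053 between lines. The fit was tested on simulated data. Promoters and gene locations are from RefSeq (GRCm38.p6). The comparison, the lists and the alternatives were chosen with earlier results of these data known. Named genes are the 15 called genes with the largest change per direction, whose 3 lines share a sign and whose higher condition has a mean FPKM of at least 5 (no predicted genes, small RNAs or joined symbols), up to 4 called members per list with the largest change (or up to 2 members where none was called), and a fixed panel, from which not every gene is printed. Genes named after their values were seen are said to be so. Alternatives were other filters, pseudocounts, scalings and sample sets, a fit without the block, leaving out each library and, chosen after seeing the data, a correction for length and GC content.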

Additional observations from a re-analysis of the deposited data

Results flagged for a closer look

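Rows without a gene name were left out of the comparisons above. When the 2938 of these rows with sufficient level were fitted in the same way with limma, 275 were called between Paused and 2i (9.36%), 142 of them higher in Paused and 133 lower. All rows without a gene name together held 59.2%, 52.8% and 57.5% of the summed FPKM in Paused and 58.8%, 58.2% and 60.7% in 2i. How this share bears on the changes above was not tested. The sources do not say what these rows hold, and no further use was made of them. No other result is listed here, because with 3 libraries per condition no search for single outlying libraries was made.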

How the results depend on the processing

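Of 12711 tested genes 5638 were called. The other filters gave 5772 with no filter, 5551 with the filter in the 6 Paused and 2i libraries and 4294 at FPKM of 5, a pseudocount of 0.1 gave 5679 (4287 with the FPKM 5 filter), and the 6 libraries alone 4561. On the authors' normalized columns 789 genes were higher and 6922 lower, against 2517 and 3121 in FPKM, because the constants differ between the conditions. Leaving out each library in turn gave 3543 to 5611 called genes, 1516 to 2522 of them higher and 2027 to 3101 lower. The lowest counts were those without Paused E14, and without Paused Oct4 GiP 1604 genes were higher. In all, 3105 of the 5638 calls (55.1%) were kept whichever library was left out. The difference in the authors' constant (Paused minus 2i) lay between -1.08 and -0.723 and that in the median gene between -0.0991 and -0.0691 when 1 of the 6 libraries was left out.

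Without the replicate block, that is without the cell line in the fit, 4797 genes were called, 2098 higher and 2699 lower. The genes named in the text that lost their call were Nanog (adjusted p = 0.099), Tfcp2l1 (0.053), Prdm14 (0.11), Ddx4 (0.1), Slc25a31 (0.1), Ccnd2 (0.059) and Tlr2 (0.072), and no other named call changed under that fit.

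Of the 168 genes named in the text 154 were called, and 138 of these calls held at every left-out library. Gbx2 is outside these counts and the other statements on named genes in this section. Several genes within the naming rule that are not printed lost their call when 1 library was left out. So the share kept among printed genes does not stand for the rule or for all calls, of which 55.1% were kept. On the authors' scale the called genes Mtor (-0.13), Pou5f1 (-0.10) and Rps4x (-0.06) stood below 0, 13 more lost their call (the 12 named with the scales and Dnajb9, 0.23) and Axin2 was called lower (-1.44, adjusted p = 0.035). Without 2i E14, Ddx3y turned from above 0 to -0.28 and was called (adjusted p = 0.048), with -0.28 to 1.53 over all left-out libraries, and with median centring or quantile normalization Uty was called (1.60 and 1.52), as it was without 2i E14 (0.74) or 2i v6.5 (1.90). Pou5f1 was not called after quantile normalization (adjusted p = 0.11) or with no filter (0.051), Prdm14 not with a pseudocount of 0.1 (0.071), and Irak1 not in the 6 libraries alone (0.055), where Klf4 was called lower (0.049), as it was without Serum v6.5 (0.027). Axin2 was called lower without Paused v6.5 (0.029). With no filter Nanog (0.074), Prdm14 (0.073), Ddx4 (0.073) and Slc25a31 (0.086) were not called either. Slc25a31 also lost its call in the 6 libraries alone (0.078), with median centring (0.072) and with quantile normalization (0.068). The cause of these changes was not tested. Correcting for the length and GC content of transcripts, an alternative chosen after seeing the data and possible for 12002 genes (94.4%), gave 5223 calls, 2271 higher and 2952 lower, and changed no call among the named genes. On the authors' scale the list medians moved by more than the spread between lines in 47 of 50 lists. The deposited values hold no read counts, so what the depth of each library limits could not be measured.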

Other observations

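Further groups of genes moved in part. Of 35 tested cyclins and inhibitors of cyclin-dependent kinases 10 rose and 10 fell (4 and 20 on the authors' scale), and 6 rose without the 2i Oct4 GiP library. Ccnd2, a cyclin of the G1 phase, stood at 7.42, 1.32 and 36.8 FPKM in Paused, 0.223, 0.268 and 1.48 in 2i and 4.59, 3.75 and 13.6 in Serum (log2 fold change 2.53 ± 0.53, adjusted p = 0.011 by limma), and was not called without Paused E14 (adjusted p = 0.051) or without the line as a block (0.059). Of 20 stress and heat shock genes 3 rose and 6 fell (0 and 14 on the authors' scale; 2 fell without Paused E14). Bag3, a partner of HSP70 in selective autophagy, stood at 10.5, 7.34 and 6.11 FPKM in Paused and 29.2, 15.9 and 23 in 2i (log2 fold change -1.39 ± 0.19). Dnajb9, a chaperone of the endoplasmic reticulum, stood at 11.5, 9.81 and 11.7 against 6.67, 5.62 and 6.61 FPKM (log2 fold change 0.72 ± 0.10). Of 24 histone acetyltransferases and their partners 5 rose and 4 fell (20.8% and 16.7%), against 0 and 11 on the authors' scale. Of 18 receptors and adaptors of the Toll-like pathway 7 fell and 2 rose (12 and 0 on the authors' scale; 4 fell without Paused E14 or Paused v6.5). Tlr2, a receptor for bacterial lipoproteins, stood at 2.52, 0.481 and 1.46 FPKM in Paused and 5.8, 1.99 and 9.8 in 2i (log2 fold change -1.37 ± 0.24), a call lost without the block (adjusted p = 0.072). Among the trophoblast markers, Tead4 stood at 3.81, 3.08 and 7.65 FPKM in Paused and 14.4, 20.5 and 17.5 in 2i (log2 fold change -1.73 ± 0.44), and was not called without Paused E14, 2i v6.5 or Paused v6.5 (adjusted p = 0.055 to 0.088).

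The share of genes called lower differed between chromosomes. Of 11833 tested genes with a chromosome in RefSeq, 541 lay on chromosome 6, and of these 33.5% were called lower and 11.5% higher (24.6% and 19.8% over all tested genes), with a median of -0.20. The medians within E14, v6.5 and Oct4 GiP were -0.31, -0.17 and -0.14. On chromosome 15 the difference was in 1 line, with medians of -0.28, -0.02 and 0.01, and it lay in 1 library. Relative to each gene's mean over the 9 libraries, the median there was 0.21 in 2i E14, -0.05 in Paused E14 and -0.00 in Serum E14. The v6.5 and Oct4 GiP libraries stood at -0.05 to -0.01. The 2i E14 library also stood apart in genes of the Y chromosome, and a link was not tested. The X chromosome stood at 0.04. The pattern was noticed after the values were seen, no test was made of it, and the copy number of the chromosomes in these cultures was not measured here.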
